A study of Mus musculus with 6 samples.

Results

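Marker genes of the type 2 conventional dendritic cell (cDC2) were examined in CD11c+ cells of the mouse spleen. The group holds 10 genes, Sirpa, Esam, Dtx1, Ltb, Cd4, Il1r2, Tbx21, S100a4, Tmem176a and Tmem176b, and comprises every probe set of the array that is annotated with exactly 1 of these symbols. All 10 were on the array, with 14 probe sets among the 20379 that name a single gene and 10 of the 12393 genes covered. A probe set is a group of short oligonucleotides that report on 1 transcript. No filter on low signal was applied, so every member was tested.

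The cells came from spleens of untreated mice at 8 weeks of age, were selected for CD11c with magnetic beads (MACS), and their RNA was hybridized to Affymetrix MOE430A arrays. Of the 6 arrays, 3 carried RNA of WT (C57BL/6J) mice and 3 RNA of Atg16L1 hypomorphic (C57BL/6J) mice, so both groups share the strain background, age and tissue. Atg16L1 is a part of the complex that conjugates LC3 and its relatives to membranes during autophagy, and a hypomorphic allele is one of reduced function. The labels do not name the allele, the cells in which it acts, or whether the arrays of a group stand for separate animals. The p-values therefore cover the variation among these 6 samples, which may be technical in part. By their titles, wild-type replicate 1 was run under a prefix of its own and wild-type replicate 3 on another array version, so results are also given without each array where that changes them. Bead selection leaves a mixture, and in such bulk RNA a lower share of a cell type and less RNA per cell cannot be told apart.

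Conventional dendritic cells of the spleen fall into the cDC1 type, which cross-presents antigen to CD8 T cells, and the cDC2 type, which presents antigen on MHC class II to CD4 T cells. The cDC2 carry the inhibitory receptor SIRPA and depend on the transcription factor IRF4. In the mouse spleen many of them carry CD4 and the adhesion molecule ESAM, and these cells need NOTCH2 and lymphotoxin beta receptor signals. T-bet, encoded by Tbx21, marks a subset of cDC2. None of the 10 genes belongs to cDC2 alone. Macrophages and monocytes also carry SIRPA, T cells CD4, B and T cells lymphotoxin beta, endothelial cells ESAM, NK cells T-bet and neutrophils the decoy receptor IL1R2.

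Start regions of members that rose (Il1r2) and fell (Ltb, S100a4, and Tmem176a with its neighbour Tmem176b) are printed so that the sequences of both directions can be set side by side. RefSeq start windows of build GRCm38.p6 were on hand for 7 of the 10 members, and Sirpa, Esam and Cd4 were not analysed here in this respect. The first 3 sequences are the 250 bases before the start given in the RefSeq start table, on the plus strand. For Ltb and S100a4 that start is the first base of the annotated gene. For Il1r2 the annotated gene begins further upstream, so its window precedes an internal start and lies within the gene, and whether it is exonic or intronic there was not analysed here. The table gives 2 starts for Tmem176a (plus strand) and 3 for Tmem176b (minus strand), neighbouring genes whose annotated spans overlap. The last sequence is the stretch of 108 bases between 1 pair of these divergent starts, the first of Tmem176a and the nearest to it of Tmem176b. Capitals mark TCACGTGA in Il1r2, the core of the longer CLEAR sequence bound by MiT/TFE factors. They mark TATAAA in S100a4 and AGGAAGT, a core sequence of ETS factors, in Tmem176a and Tmem176b. None of the letters searched were in the Ltb window, which has no capitals.
Il1r2, chr1:40085843-40086092: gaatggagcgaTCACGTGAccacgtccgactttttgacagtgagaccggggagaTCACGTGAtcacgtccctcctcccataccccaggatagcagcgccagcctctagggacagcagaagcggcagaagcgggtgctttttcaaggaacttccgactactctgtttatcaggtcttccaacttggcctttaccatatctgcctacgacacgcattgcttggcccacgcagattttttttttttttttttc
Ltb, chr17:35194257-35194506: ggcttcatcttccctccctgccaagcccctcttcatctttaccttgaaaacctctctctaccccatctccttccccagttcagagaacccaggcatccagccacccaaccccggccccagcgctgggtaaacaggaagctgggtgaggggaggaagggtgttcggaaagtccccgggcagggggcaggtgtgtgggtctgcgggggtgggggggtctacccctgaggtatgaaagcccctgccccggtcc
S100a4, chr3:90603520-90603769: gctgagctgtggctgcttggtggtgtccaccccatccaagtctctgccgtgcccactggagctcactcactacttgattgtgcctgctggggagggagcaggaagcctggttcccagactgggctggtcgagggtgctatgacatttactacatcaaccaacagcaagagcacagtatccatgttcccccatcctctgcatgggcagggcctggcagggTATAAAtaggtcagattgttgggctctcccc
Tmem176a and Tmem176b, chr6:48841375-48841482: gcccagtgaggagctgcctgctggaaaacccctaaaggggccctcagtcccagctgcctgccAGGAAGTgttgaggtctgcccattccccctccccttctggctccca

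These letters were searched on both strands in the 250 bases before each of 32851 RefSeq starts, after the sequences had been read. TCACGTGA, which reads the same on both strands, occurred in 0.785% of the windows and at 2 places in 0.0335%. Il1r2 was among the latter, with matches beginning 239 and 196 bases before that internal start. The full CLEAR sequence was not searched. TATAAA occurred in 12.4% of the windows and began 31 bases before the start of S100a4. AGGAAGT occurred in 7.69% of the windows. The RBPJ sequence TGGGAA, by which Notch signals act on DNA, occurred in 21.6% of the windows, among them those of S100a4, Tbx21 and a second start of Tmem176a, and these letters were not in the window of Dtx1. A match is a description of the sequence and not a site of binding.

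The members did not move as a block. Sirpa and Il1r2 rose in the hypomorph, Ltb, Tmem176a and S100a4 fell, and Esam, Dtx1, Tmem176b, Tbx21 and Cd4 did not pass an adjusted p of 0.05 in limma. By the probe set of highest mean signal per gene, 2 of 10 were called higher and 3 lower, against 9.65% and 8.32% of all genes. By probe set, 4 of 14 were higher and 3 lower, against 9.95% and 7.73% of all probe sets. The arrays of the groups did not overlap for 9 of the 10 genes, 2 with the hypomorph above and 7 with the hypomorph below, where 18.5% and 22.5% of all genes lay so and 41.0% did not overlap in either direction. By probe set 5 lay above and 8 below, against 19.0% and 20.8% of all probe sets, or 39.8% in either direction. The median log2 difference of the 10 was -0.38, beside -0.05 over all genes. The count of lower genes depended on processing. It was 6 after quantile normalization or centring on array medians, 1 with the replicate number as a block, and 1 without hypomorph replicate 2 or 3, while the higher genes numbered 1 with the block, with trend and robust fitting, or without any 1 hypomorph array. Over all probe sets, 2028 were higher and 1576 lower with all arrays, and 1353 and 861 with the block. Without hypomorph replicate 1, 2 or 3 the higher numbered 1032, 1027 and 932. The lower then numbered 583, 402 and 347. With a wild-type array left out there were 1680 to 1967 higher and 1281 to 1577 lower. A call lost without a hypomorph array was thus not particular to its gene.

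**Figure D1:**
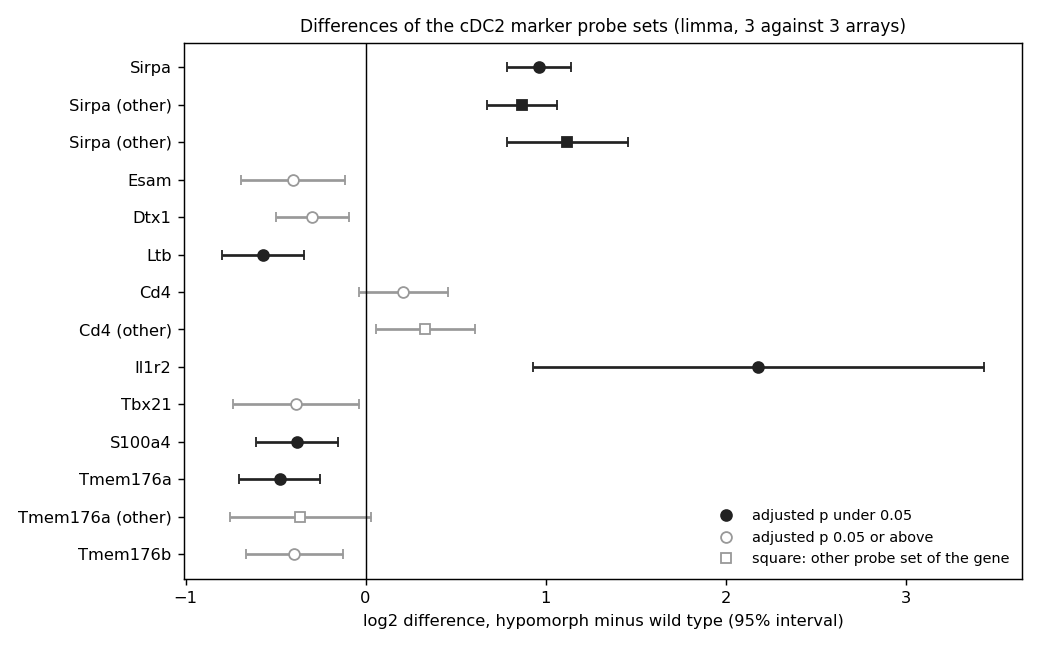
Log2 difference, hypomorph minus wild type, of the 14 probe sets of the cDC2 markers with 95% intervals from limma (3 against 3 arrays). Filled symbols passed an adjusted p of 0.05, and squares are further probe sets of a gene. The 3 probe sets of Sirpa lie between 0.87 and 1.12, Il1r2 lies at 2.18 with the widest interval of the 14, and the 8 probe sets below 0 lie between -0.57 and -0.30.

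Spread within a genotype differed widely between the members. Among wild-type arrays the SD of log2 expression ran from 0.03 for a probe set of Sirpa to 1.20 for Il1r2, and among hypomorph arrays from 0.04 for a probe set of Tmem176a to 0.25 for Il1r2. Wild-type replicate 1 was the lowest of the wild-type arrays for Il1r2, Dtx1, Ltb, Tmem176a and Tmem176b, and wild-type replicate 2 was the highest for Esam, Tmem176a and Tmem176b. Hypomorph replicate 3 was the lowest of its group for Il1r2, Dtx1, Ltb, Tbx21, S100a4, Tmem176a and Tmem176b.

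**Figure D2:**
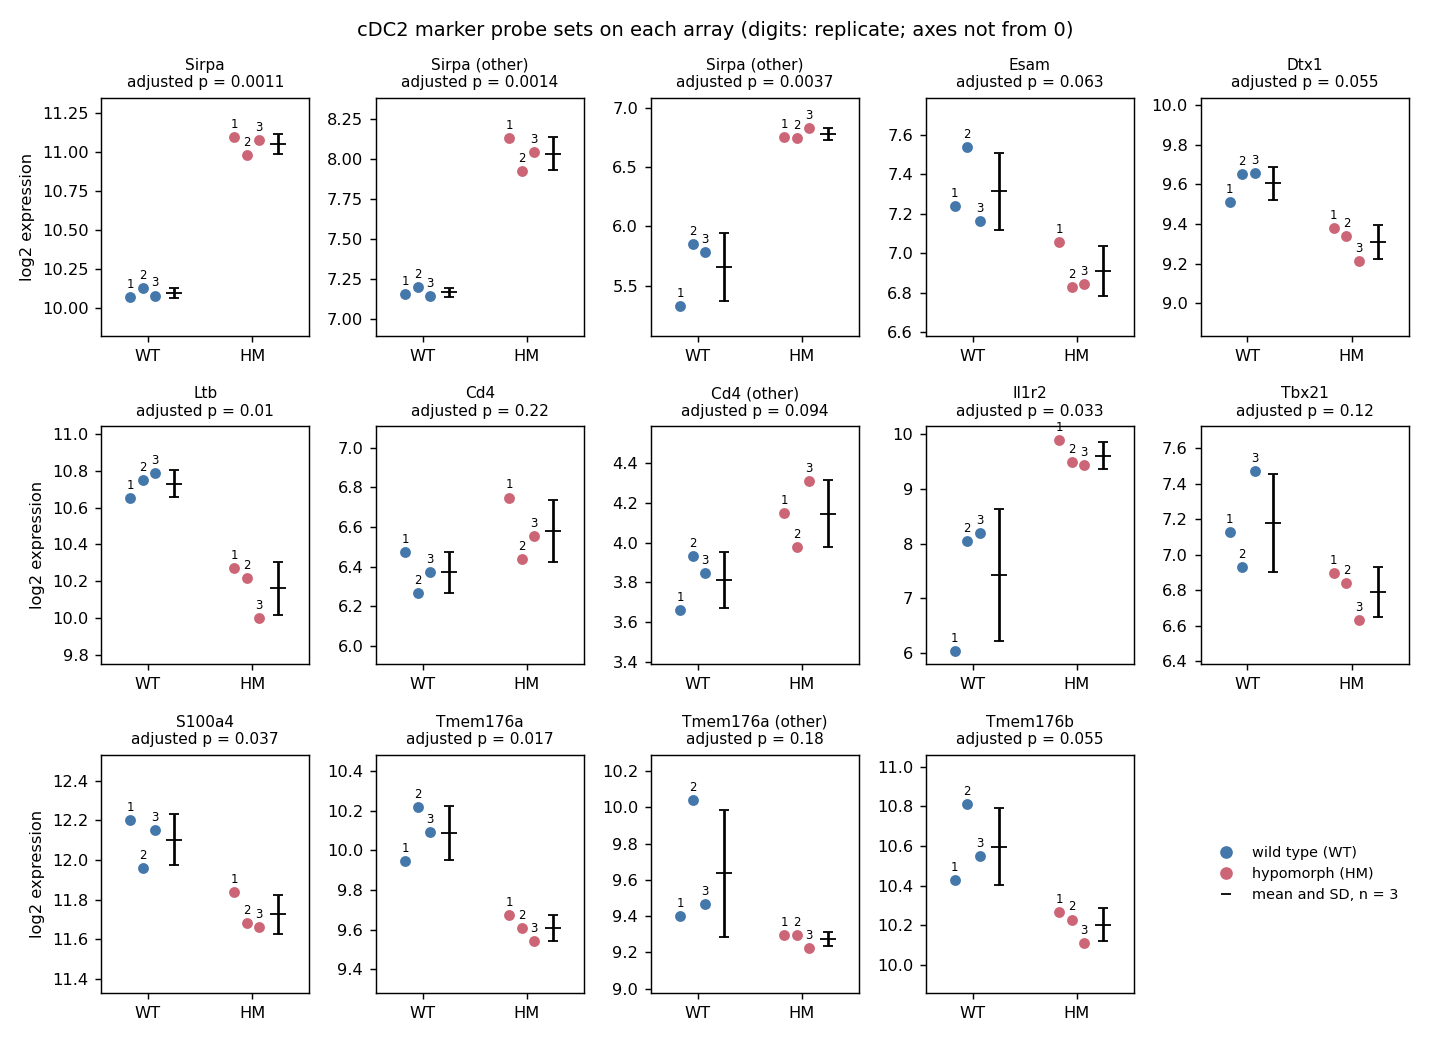
Log2 expression of each cDC2 marker probe set on the 3 wild-type (WT) and 3 hypomorph (HM) arrays, with replicate numbers, the mean and the SD (n = 3); the vertical axes do not start at 0 and differ between panels. The groups stand apart in every panel except the first of Cd4, and wild-type replicate 1 lies far below the other wild-type arrays for Il1r2, at 6.04 against 8.05 and 8.19.

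Atg16l1 averaged 7.07 ± 0.04 on the wild-type and 6.03 ± 0.16 on the hypomorph arrays (log2 difference -1.04, adjusted p = 0.00139), these and all such pairs being the mean ± SD of 3 arrays. The 24 probe sets of the poly-A spike-ins, bacterial transcripts added before labelling, averaged 8.95 to 9.96 on the wild-type arrays and 7.58 to 7.90 on the hypomorph arrays (two-sided exact permutation p = 0.1, the smallest that 3 against 3 arrays can give). The 18 probe sets of the hybridization controls, added before hybridization, averaged 11.08 to 11.65 and 10.29 to 10.40. The excess of the beta-actin 3′ signal over its 5′ signal, a sign of RNA quality, was 0.94 to 1.02 and 0.69 to 0.77 (two-sided exact permutation p = 0.1 for each). None of these 3 measures overlapped between the genotypes, and the part of the hybridization controls and of the beta-actin difference in the members' values was not tested. When the poly-A spike-in level entered as a covariate, 0 of the 10 members passed in limma, with 1 at an unadjusted p under 0.05. Over all 20379 probe sets 0 were then higher and 0 lower, so the lost calls were not particular to the members. The standard errors were 2.95 times as large in the median. Of 9 measured genes of conventional dendritic cells, the labelled cell type, 0 rose and 3 fell, with a median log2 difference of -0.27, and the mean of the list was 10.65 to 10.86 in wild type and 10.40 to 10.51 in the hypomorph, without overlap. The 3 that fell were Zbtb46, Ciita and Itgax, which were added to the named genes after their values were seen. Zbtb46, a transcription factor gene of conventional dendritic cells, fell from 8.53 ± 0.16 to 7.90 ± 0.11 (adjusted p = 0.0101), and Ciita, which encodes the master regulator of class II genes, from 9.51 ± 0.30 to 8.58 ± 0.07 (adjusted p = 0.00818). Itgax, which encodes CD11c, stood at 10.32 ± 0.13 in wild type and fell to 9.94 ± 0.07 (adjusted p = 0.0351). The 3 brightest genes of the list did not pass, and their differences lay above 0. H2-Ab1, a class II chain, stood at 13.30 ± 0.04 and 13.38 ± 0.06 (adjusted p = 0.487). H2-Eb1 stood at 13.24 ± 0.02 and 13.38 ± 0.05 (adjusted p = 0.244), and Cd74 at 12.77 ± 0.02 and 12.80 ± 0.08 (adjusted p = 0.827).

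Sirpa, the inhibitory receptor that binds CD47 on other cells and that defines the cDC2 surface, rose to about double by its brightest probe set. The log2 values were 10.07, 10.13 and 10.08 in wild type and 11.10, 10.98 and 11.08 in the hypomorph. Each hypomorph array lay above each wild-type array, and the gap exceeded the spread of either group. The increase was 1.95-fold (log2 difference 0.96, SE 0.076, 95% interval 0.79 to 1.14, adjusted p = 0.00107). The second probe set read 7.16, 7.20 and 7.14 against 8.13, 7.92 and 8.05, a 1.83-fold increase (adjusted p = 0.00143). The third read 5.33, 5.85 and 5.79 against 6.75, 6.74 and 6.83, a 2.18-fold increase (adjusted p = 0.00374). The 3 probe sets thus gave the same direction with groups that did not overlap. With any 1 array left out the adjusted p of the brightest stayed between 0.00161 and 0.0102.

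Genes listed around SIRPA rose in part. Of the 10 genes in this list of ligands and signalling molecules, 3 rose and 0 fell, with a median log2 difference of 0.13. Cd47, which encodes the ligand, rose 1.27-fold from 10.96 ± 0.07 to 11.30 ± 0.03 (adjusted p = 0.0248). Tyrobp, which encodes the activating adaptor DAP12, rose 1.30-fold (adjusted p = 0.0243), and Fyb, an adaptor in the same signalling neighbourhood, rose 1.39-fold (adjusted p = 0.00659). Binding of DAP12 to SIRPA itself is not implied by the list. The phosphatase genes Ptpn6 and Ptpn11 did not pass in limma. They read 10.91 ± 0.05 and 10.96 ± 0.08 (adjusted p = 0.712), and 8.73 ± 0.19 and 8.66 ± 0.07 (adjusted p = 0.729). The calls of Cd47 and Tyrobp were lost without any 1 hypomorph array, and also without wild-type replicate 2 for Cd47 and replicate 3 for Tyrobp, whereas Fyb kept its call with each array left out.

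Genes of red pulp and marginal zone macrophages, which also carry SIRPA, were higher on the same arrays. Of the 17 measured of 18 listed, 15 rose and 0 fell. Their mean log2 level ran from 8.22 to 8.89 on the wild-type arrays and from 10.09 to 10.21 on the hypomorph arrays. The brightest were the iron exporter gene Slc40a1 (11.60 ± 0.43 and 13.22 ± 0.12), the adhesion gene Vcam1 (11.23 ± 0.35 and 12.79 ± 0.09) and the complement gene C1qa (10.85 ± 0.39 and 12.74 ± 0.06). With the macrophage mean as a covariate, the Sirpa difference was 0.77 (adjusted p = 0.29, within a range of 4.08e-05 to 0.394 over 18 alternatives). That covariate differs between the groups by 1.58 and makes standard errors 3.82 times as large in the median, so genotype and macrophage level cannot be told apart with these arrays. Monocyte markers did not stand apart in this way, with means of 8.36 to 8.49 in wild type and 8.29 to 8.38 in the hypomorph and with 1 of 7 higher and 1 lower.

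**Figure D3:**
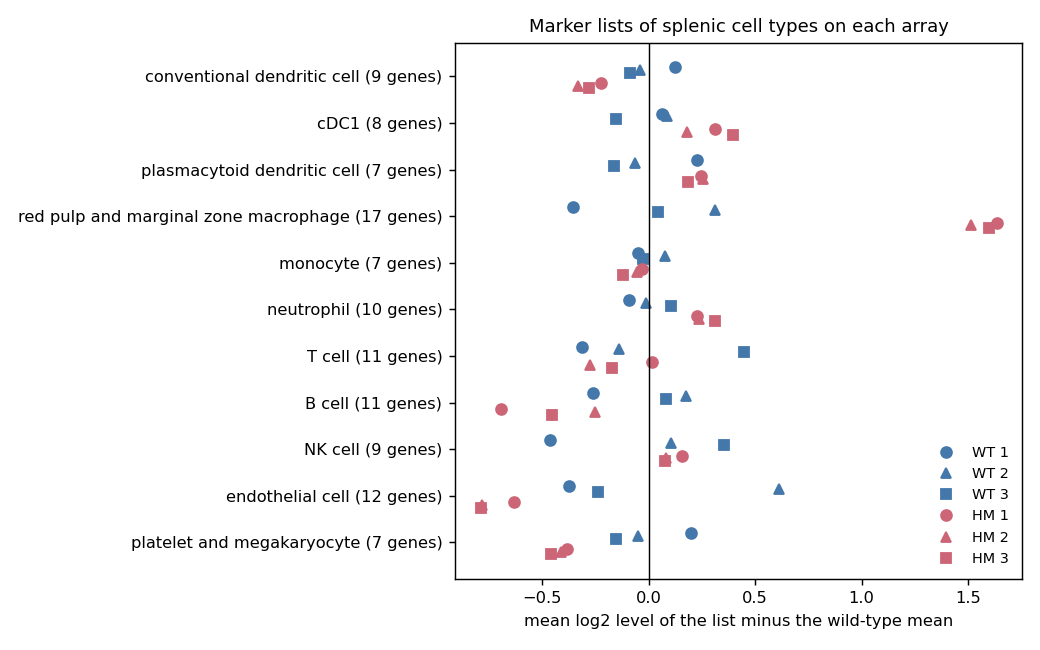
Mean log2 level of each marker list on each array, minus the wild-type mean of that list; symbols give the replicate. Macrophage markers lie above all wild-type arrays on the 3 hypomorph arrays (mean difference 1.58), as do cDC1 (0.30) and neutrophil markers (0.26). Endothelial, platelet and conventional dendritic cell markers lie below all wild-type arrays. The T, NK and B cell, plasmacytoid dendritic cell and monocyte lists overlap between the genotypes.

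Il1r2, a decoy receptor that binds interleukin 1 without signalling, showed the largest change and the largest spread of the members. The wild-type values were 6.04, 8.05 and 8.19 and the hypomorph values 9.89, 9.49 and 9.45. All 3 hypomorph arrays lay above all wild-type arrays, and wild-type replicate 1 was far lower than wild-type replicates 2 and 3. The increase was 4.54-fold (log2 difference 2.18, SE 0.53, 95% interval 0.93 to 3.44, adjusted p = 0.0325). Without wild-type replicate 1 the log2 difference was 1.49 (adjusted p = 0.00311). Without hypomorph replicate 1, 2 or 3 the call was lost, with adjusted p from 0.091 to 0.108. The log2 difference was then 2.04, 2.24 and 2.27, close to that of all 6 arrays, and calls over all probe sets also fell in number. With the spike-in level or the macrophage mean as a covariate the difference was -0.77 and -2.84, neither of them past the threshold (adjusted p = 0.887 and 0.293, the range over 18 alternatives being 0.00311 to 0.887).

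The rest of the interleukin 1 system was divided. Of 12 measured genes 2 rose and 2 fell, with a median log2 difference of -0.17. The cytokine genes Il1a and Il18 rose 2.41-fold (5.66 ± 0.23 to 6.92 ± 0.03) and 2.04-fold (9.96 ± 0.19 to 10.99 ± 0.03), and kept their calls with each array left out. Il33, another cytokine of the family, was 1.58-fold lower (adjusted p = 0.0161), and Sigirr, which encodes an inhibitory receptor of the family, was 1.56-fold lower (adjusted p = 0.0191). Sigirr lost its call without any 1 hypomorph array and Il33 without hypomorph replicate 3. The signalling receptor gene Il1r1 read 6.03 ± 0.33 and 5.86 ± 0.32 (log2 difference -0.18, adjusted p = 0.604, and -0.36 to -0.0066 with 1 array left out), and Il1rn, which encodes the receptor antagonist, read 5.70 ± 0.75 and 5.45 ± 0.16 (adjusted p = 0.644). Il1rn was lowest in wild-type replicate 1, at 4.84, the array in which Il1r2 was also lowest, and without that array its log2 difference was -0.68 and past the threshold (adjusted p = 0.0201).

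Neutrophils also express Il1r2. Of 10 measured neutrophil genes out of 12 listed, 2 rose and 1 fell, and their mean log2 level was 5.26, 5.34 and 5.46 on the wild-type arrays and 5.58, 5.59 and 5.67 on the hypomorph arrays. The granule gene Ngp rose 2.99-fold (5.91 ± 0.49 to 7.49 ± 0.16), while the receptor gene Csf3r read 7.62 ± 0.37 and 7.60 ± 0.04 and the protease gene Mmp9 6.57 ± 0.28 and 6.40 ± 0.12. The macrophage mean was lowest in wild-type replicate 1 too, at 8.22. The part of either cell type in the Il1r2 difference was not tested.

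Ltb, which encodes the membrane-anchoring subunit of the lymphotoxin heterotrimer that triggers the lymphotoxin beta receptor, fell. The values were 10.65, 10.75 and 10.79 in wild type and 10.27, 10.22 and 10.004 in the hypomorph. Every hypomorph array was below every wild-type array. The decrease was 1.48-fold (log2 difference -0.57, SE 0.097, 95% interval -0.80 to -0.34, adjusted p = 0.0101). It passed with each array left out (adjusted p 0.015 to 0.0432) and with the replicate block (adjusted p = 0.0393, the range over 18 alternatives being 0.00164 to 1).

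Of 11 measured genes of the lymphotoxin beta receptor pathway, 2 rose and 3 fell, with a median log2 difference of -0.24. The receptor gene Ltbr itself read 6.57 ± 0.17 and 6.83 ± 0.11 (log2 difference 0.26, adjusted p = 0.145, and 0.17 without wild-type replicate 3), and Lta, which encodes the other subunit of the ligand, 5.62 ± 0.42 and 5.18 ± 0.15 (adjusted p = 0.188, with a log2 difference of -0.43). Without wild-type replicate 1 the Lta difference was -0.65 (adjusted p = 0.036) and without wild-type replicate 3 it was -0.23 (adjusted p = 0.384). The non-canonical NF-kB genes Nfkb2 and Relb were 1.61-fold lower (8.12 ± 0.29 to 7.43 ± 0.03, adjusted p = 0.0194) and 1.31-fold lower (9.18 ± 0.04 to 8.79 ± 0.13, adjusted p = 0.0281), and the adaptor gene Traf2 1.26-fold lower (adjusted p = 0.0319). Tnfrsf14, which encodes the receptor HVEM, rose 1.84-fold from 4.32 ± 0.08 to 5.19 ± 0.03, and the TNF receptor gene Tnfrsf1a 1.36-fold (adjusted p = 0.0209). Without hypomorph replicate 2 or 3 none of the 3 lower genes passed in limma, Relb and Traf2 also failed without wild-type replicate 1 or 3, Relb without wild-type replicate 2 and Nfkb2 without hypomorph replicate 1. Tnfrsf1a failed when wild-type replicate 3 or hypomorph replicate 1 or 3 was removed, while Tnfrsf14 passed with each array left out. The lower genes numbered 5 after quantile normalization and 1 with the replicate block.

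B cells are a source of Ltb, and several of their markers were lower on the hypomorph arrays. Of 11 measured genes out of 12 listed, 5 fell and 0 rose. Their mean log2 level was 8.62, 9.06 and 8.96 on the wild-type arrays and 8.19, 8.63 and 8.43 on the hypomorph arrays, with hypomorph replicate 2 just above wild-type replicate 1. Among the 3 brightest, Ms4a1, which encodes CD20, was at 11.70 ± 0.19 and 10.99 ± 0.27, the antigen receptor subunit gene Cd79b at 10.53 ± 0.13 and 9.90 ± 0.28, and Cd1d1, which did not pass, at 10.10 ± 0.23 and 10.46 ± 0.15. Ltb was lowest in hypomorph replicate 3 and the B cell mean lowest in hypomorph replicate 1. The part of B cells in the Ltb difference was not tested.

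Esam and Dtx1 stand for the Notch-dependent cDC2 of the spleen, and neither passed the test. Esam, an adhesion molecule of tight junctions, read 7.24, 7.54 and 7.17 in wild type and 7.06, 6.83 and 6.84 in the hypomorph. The groups did not overlap, with wild-type replicate 2 highest, and the log2 difference was -0.40 (SE 0.12, 95% interval -0.69 to -0.12, adjusted p = 0.0626). Dtx1, a ubiquitin ligase gene and a target of Notch signals, read 9.51, 9.65 and 9.66 against 9.38, 9.34 and 9.22. These groups did not overlap either, and the log2 difference was -0.30 (SE 0.086, 95% interval -0.50 to -0.09, adjusted p = 0.0553). Both were past the threshold after quantile normalization (adjusted p = 0.0335 for Esam and 0.0216 for Dtx1), with ranges of 0.0335 to 1 and 0.0208 to 1 over 18 alternatives. Dtx1 also passed without wild-type replicate 1 (adjusted p = 0.0403). The part of other cells, B cells among them, in the Dtx1 values was not tested.

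Of 28 measured genes of the Notch pathway, 1 rose and 2 fell, where 9.65% and 8.32% of all genes did. The median log2 difference of the list was -0.10. The receptor gene Notch1 was 1.47-fold lower (7.57 ± 0.20 to 7.02 ± 0.10, adjusted p = 0.0208) and Mfng, which encodes a glycosyltransferase that modifies Notch receptors, 1.27-fold lower (adjusted p = 0.0336), while Aph1a, which encodes a gamma-secretase subunit, rose 1.35-fold by its brightest probe set (adjusted p = 0.0123). The probe sets of Aph1a disagreed, and their mean gave a log2 difference of 0.0057 (adjusted p = 0.964). All 3 calls were lost without hypomorph replicate 2 or 3, and that of Mfng also when wild-type replicate 1 or 3, or hypomorph replicate 1, was removed. Notch2, the receptor needed by the ESAM-bearing cDC2, read 9.82 ± 0.11 and 9.98 ± 0.08 (log2 difference 0.16, adjusted p = 0.276; -0.08 when its probe sets were averaged). Rbpj, which encodes the DNA-binding partner of Notch, read 7.35 ± 0.05 and 7.46 ± 0.03 (adjusted p = 0.322), a log2 difference of 0.12 that was 0.21 when its probe sets were averaged.

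Endothelial cells also carry ESAM, and some of their markers fell in the hypomorph. Of 12 measured genes 4 fell and 0 rose, and the mean log2 level was 5.71, 6.69 and 5.84 on the wild-type arrays and 5.45, 5.30 and 5.30 on the hypomorph arrays. Wild-type replicate 2 was highest for this list and for Esam. Plvap, a marker of fenestrated endothelium, was at 9.06 ± 0.90 and 7.23 ± 0.11, the VEGF receptor gene Kdr at 7.61 ± 0.62 and 6.54 ± 0.06, and the scavenger receptor gene Stab2, which did not pass, at 8.95 ± 0.55 and 8.95 ± 0.13. Platelets carry ESAM too, and 2 of 7 platelet and megakaryocyte genes fell while 0 rose, with means of 5.65 to 6.00 and 5.34 to 5.41. The part of these cells in the Esam values was not tested.

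Cd4, the co-receptor for MHC class II that many splenic cDC2 carry, did not pass by either probe set. The first read 6.47, 6.27 and 6.37 in wild type and 6.75, 6.44 and 6.56 in the hypomorph, with overlapping groups and a log2 difference of 0.21 (SE 0.11, 95% interval -0.04 to 0.46, adjusted p = 0.216; 0.13 without hypomorph replicate 1). The second read 3.66, 3.93 and 3.85 against 4.15, 3.98 and 4.31, with groups that did not overlap and a log2 difference of 0.33 (95% interval 0.06 to 0.61, adjusted p = 0.0937). An increase above 0.61 on the log2 scale thus lies outside both intervals. The signal of the second probe set was low, with 28.8% of all probe sets dimmer, and its interval describes that signal only. Of 11 measured T cell genes out of 14 listed, 1 rose and 0 fell, and their mean was 5.86, 6.04 and 6.62 on the wild-type arrays and 6.19, 5.90 and 6.00 on the hypomorph arrays. Wild-type replicate 3, the highest for T cell genes, was the middle of the wild-type arrays for both Cd4 probe sets. The part of T cells in the Cd4 values was not tested.

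Tbx21, which encodes T-bet, read 7.13, 6.93 and 7.47 in wild type and 6.90, 6.84 and 6.63 in the hypomorph. The groups lay close without overlapping, the lowest wild-type array being just above the highest hypomorph array. The log2 difference was -0.39 (SE 0.15, 95% interval -0.74 to -0.04, adjusted p = 0.119). It passed without wild-type replicate 2 (log2 difference -0.51, adjusted p = 0.0484), whereas without wild-type replicate 3, its highest array, the difference was -0.24 (adjusted p = 0.233, the range over 18 alternatives being 0.0484 to 1). Of 12 measured genes around T-bet, 1 rose and 0 fell, the interferon gamma receptor gene Ifngr1 (1.37-fold, 9.68 ± 0.07 to 10.13 ± 0.14, adjusted p = 0.0202), a call that failed when wild-type replicate 3 or hypomorph replicate 1 or 3 was removed. The NK cell list, whose cells carry T-bet, had 0 of 9 measured genes past the threshold in limma, with 1 at an unadjusted p under 0.05. Its mean was 6.81, 7.37 and 7.62 on the wild-type arrays and 7.43, 7.35 and 7.34 on the hypomorph arrays. Both Tbx21 and the NK cell list were highest in wild-type replicate 3. The list was lowest in wild-type replicate 1, at 6.81, where Tbx21 read 7.13, above each hypomorph array. The part of NK cells in the Tbx21 difference was not tested.

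S100a4, a calcium-binding protein gene of myeloid and activated lymphoid cells, fell. The values were 12.20, 11.96 and 12.15 in wild type and 11.84, 11.68 and 11.66 in the hypomorph, without overlap. The decrease was 1.30-fold (log2 difference -0.38, SE 0.097, 95% interval -0.61 to -0.15, adjusted p = 0.0373). The call was kept without wild-type replicate 2 (adjusted p = 0.0248) and lost with any of the other 5 arrays left out, with adjusted p up to 0.135. With the macrophage mean as a covariate the log2 difference was 0.08 (adjusted p = 0.946, the range over 18 alternatives being 0.00782 to 1).

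Of 12 other S100 genes measured, 1 rose and 2 fell, where 9.65% and 8.32% of all genes did. The difference was below 0 for 9 of the 12, as it was for 7318 of all 12393 genes, and the median was -0.28. S100a10, which encodes the partner of annexin A2, was 1.57-fold lower (9.71 ± 0.06 to 9.06 ± 0.07, adjusted p = 0.00303) with each array left out too, and S100a6, the neighbour gene encoding calcyclin, 1.47-fold lower (10.16 ± 0.17 to 9.60 ± 0.05, adjusted p = 0.0126), a call lost without hypomorph replicate 2 or 3. S100a1 rose 1.44-fold (6.22 ± 0.05 to 6.75 ± 0.08). The lower genes numbered 4 after quantile normalization or centring on array medians and also without wild-type replicate 3, and 1 without hypomorph replicate 2 or 3.

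The neighbouring genes Tmem176a and Tmem176b, which encode related ion channel proteins of myeloid cells and resemble the MS4A family, had differences below 0, and Tmem176a passed. Tmem176a read 9.95, 10.22 and 10.09 in wild type and 9.67, 9.61 and 9.54 in the hypomorph, a 1.39-fold decrease (log2 difference -0.48, SE 0.095, 95% interval -0.70 to -0.25, adjusted p = 0.0169). Its other probe set read 9.40, 10.04 and 9.47 against 9.30, 9.30 and 9.23 and did not pass (log2 difference -0.36, adjusted p = 0.18). That difference rested largely on wild-type replicate 2, without which it was -0.16 (adjusted p = 0.23). Tmem176b read 10.43, 10.81 and 10.56 against 10.27, 10.23 and 10.11 (log2 difference -0.40, SE 0.11, 95% interval -0.66 to -0.13, adjusted p = 0.0547). No group overlapped in any of these 3 probe sets, and wild-type replicate 2 was the highest array in each. The call of Tmem176a was lost without hypomorph replicate 2 or 3 and when its probe sets were averaged (adjusted p = 0.0557), and Tmem176b passed both when wild-type replicate 1 was removed (adjusted p = 0.0317) and after quantile normalization (adjusted p = 0.0252), with ranges of 0.00388 to 1 and 0.0205 to 1 over 18 alternatives.

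The MS4A genes were divided. Of 10 measured, 3 rose and 1 fell, with a median log2 difference of -0.04. Ms4a6d rose 4.57-fold (5.66 ± 0.52 to 7.85 ± 0.03, a log2 difference of 2.19 that was 1.52 when its probe sets were averaged), Ms4a7, a gene of macrophages, 3.66-fold (7.38 ± 0.29 to 9.25 ± 0.17) and Ms4a8a 1.68-fold, and all 3 kept their calls with each array left out. Ms4a2, which encodes a chain of the high-affinity IgE receptor, was 1.26-fold lower, from 3.20 ± 0.05 to 2.86 ± 0.05, a call that failed when wild-type replicate 2 or any of the hypomorph arrays was removed. Both Ms4a2 means lay below 3.712, the lower quartile of the means of all probe sets, so its signal was low in both groups.

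Further factors and receptors of cDC2 held 4 of 16 measured genes that rose and 1 that fell, with a median log2 difference of 0.14. Clec4a2, a lectin gene of the DCIR group, rose 2.64-fold (8.08 ± 0.13 to 9.48 ± 0.05), Klf4, which encodes a transcription factor of cDC2 and monocytes, 3.26-fold (9.002 ± 0.32 to 10.71 ± 0.11), Csf1r, which encodes the M-CSF receptor, 2.17-fold (12.22 ± 0.16 to 13.33 ± 0.04) and the beta-glucan receptor gene Clec7a 2.09-fold (9.93 ± 0.37 to 10.99 ± 0.11). These 4 passed with each array left out, and macrophages express several of them. The chemokine receptor gene Ccr6 was 1.37-fold lower (adjusted p = 0.0124), a call lost without hypomorph replicate 1 or 3. The lineage factor gene Irf4 read 8.06, 8.54 and 8.67 in wild type and 8.99, 8.97 and 8.94 in the hypomorph, without overlap and without passing (log2 difference 0.54, SE 0.15, adjusted p = 0.0517), and it passed without wild-type replicate 1 (0.36) or 3 (0.66). When the probe sets of Irf4 were averaged the log2 difference was 0.08 (adjusted p = 0.759). The cDC1 markers were above wild type by 0.30 in the mean of the list, at 8.64 to 8.88 and 8.97 to 9.19, and 2 of 8 rose and 0 fell.

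**Figure D4:**
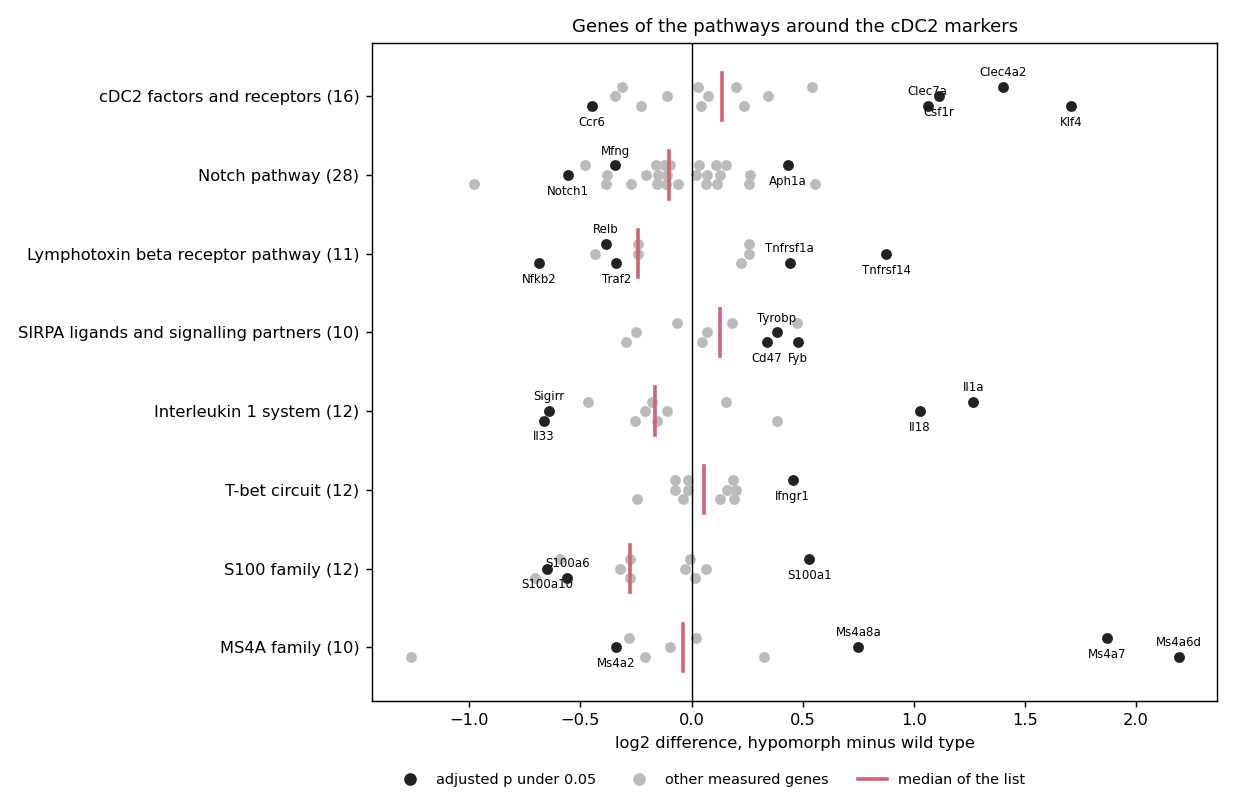
Log2 difference, hypomorph minus wild type, of each measured gene in the 8 lists around the cDC2 markers; black points passed an adjusted p of 0.05 in limma and are named, and the red line is the median of the list. Of all 111 genes, 17 rose and 11 fell, and no list lies wholly on 1 side of 0.

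Over the 8 lists together, 17 of 111 measured genes rose and 11 fell, where 9.65% and 8.32% of all genes did, with a median log2 difference of -0.02. Without hypomorph replicate 1, 2 or 3 the fallen genes numbered 6, 3 and 1. Among the cDC2 markers, Sirpa and Ltb passed in all 15 alternatives that used neither a covariate nor a minimum change, and Cd4 passed in none of them. The others passed in some, from 1 of 15 for Tbx21 to 11 of 15 for Tmem176a.

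**Figure D5:**
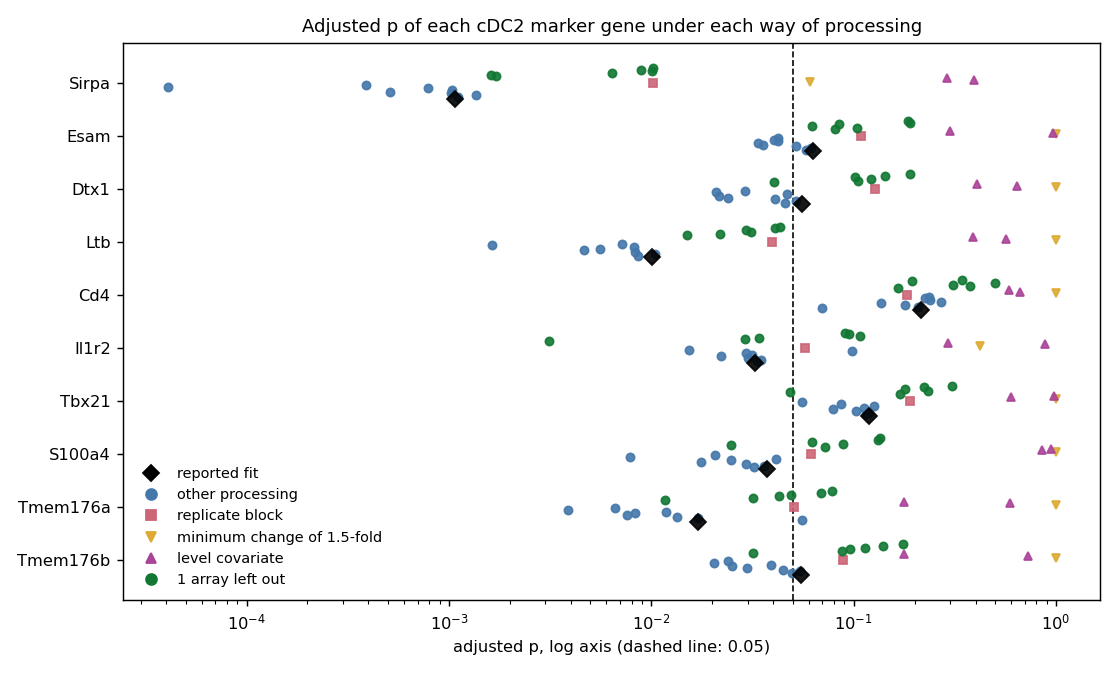
Adjusted p (log axis) of each cDC2 marker gene in the reported fit (diamond) and under 18 alternatives, with a dashed line at 0.05. Sirpa and Ltb stay left of the line except with a covariate or a minimum change of 1.5-fold, Cd4 stays right of it, and the points of Il1r2, S100a4, Tmem176a, Tmem176b, Dtx1, Esam and Tbx21 lie on both sides.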

How the data were processed

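Expression in CD11c+ spleen cells was measured on 6 arrays. The authors deposited 1 log2 value per probe set and array, made with Affymetrix Power Tools per the submitters' processing notes. For version, background correction and summarization: not given in the sources used here. Their log2 base and normalization between arrays were inferred from the range (1.96 to 14.33) and close array medians (5.72 to 5.79). Normalization hides differences in total RNA per cell, and the number of arrays limits precision.

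Symbols came from the platform annotation. The 2 genotypes entered a two-sided limma test (version 3.58.1, R 4.3.3; lmFit and eBayes) over 20379 single-gene probe sets, with Benjamini-Hochberg adjustment and no filter. "Rose" and "fell" mean an adjusted p under 0.05. The probe set of highest mean stood for a gene. Control levels were compared by exact permutation. The script was tested on simulated data. Named genes were the members with all their probe sets, Atg16l1, up to 4 passing genes each way per pathway list, 8 partner genes, and up to 3 brightest genes per marker list. Itgax, the selection marker, Zbtb46, Ciita, Ptpn6 and Ptpn11 were added after their values were seen. Members and lists were chosen with earlier results of these data known. The 8 pathway lists had 111 of 124 genes measured and the 11 marker lists 108 of 126. Alternatives were averaging probe sets, 1 test per gene, filters, normalizations, a trended robust fit, weights per array, a block for replicate numbers, a minimum change of 1.5-fold, covariates and leaving out each array.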

Additional observations from a re-analysis of the deposited data

How the results depend on the processing

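Of the alternatives tried, the filter at the lower quartile gave 5 lower member genes and 5 lower member probe sets in place of 3, and the filter at the median, quantile normalization, centring on array medians, trend and robust fitting, and array weights gave 6 of each. With the replicate block there were 1 higher and 1 lower member gene and 1 lower probe set, and 6 lower pathway genes in place of 11. The deviations of arrays from their group means correlated at 0.159, 0.019 and 0.1 for the same replicate number. For different numbers the correlations ran from -0.167 to 0.134. With 3 arrays per group these values cannot settle whether the numbers pair the arrays. Trend and robust fitting gave 1 higher member gene and 17 lower pathway genes, and array weights 18. A minimum change of 1.5-fold left 0 higher and 0 lower members by limma (2 genes and 4 probe sets higher and 0 lower at an unadjusted p under 0.05), 6 higher and 0 lower pathway genes, and Atg16l1 at -1.04 (adjusted p = 0.0857). The spike-in covariate left 0 higher and 0 lower members and pathway genes by limma (1 gene and 2 probe sets higher, 0 lower, 16 pathway genes higher and 6 lower at an unadjusted p under 0.05), with Atg16l1 at -0.91 (adjusted p = 0.476). The macrophage covariate left 0 members (1 gene and 1 probe set higher, 4 genes and 5 probe sets lower, unadjusted), 0 higher pathway genes (8 unadjusted) and 3 lower, with Atg16l1 at -1.28 (adjusted p = 0.211). Calls over all 20379 probe sets fell as well, from 2028 higher and 1576 lower in the reported fit. There were 1353 and 861 with the replicate block and 200 and 15 with the minimum change. The spike-in covariate left 0 and 0, and the macrophage covariate 12 and 104. The lost member calls were thus not particular to the members. With 1 array left out, the higher member genes numbered 1 to 2, the lower member genes and probe sets 1 to 4, the higher member probe sets 3 to 4, the higher pathway genes 12 to 20 and the lower ones 1 to 15.

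Directions turned in 18 cases, none of them past the threshold in limma. With the macrophage covariate the log2 differences were -0.40 for the second Cd4 probe set, -0.15 for the third Sirpa probe set, -0.44 for Clec7a, -2.84 for Il1r2, -0.65 for Irf4, 0.015 for Mfng, 0.40 for Nfkb2, -0.36 for Notch2, -0.11 for Rbpj, 0.080 for S100a4 and 0.47 for Sigirr. With the spike-in covariate they were -0.77 for Il1r2, -0.36 for Irf4, 0.16 for Nfkb2, -0.012 for Notch2 and 0.018 for S100a6. Averaging probe sets gave -0.081 for Notch2, and leaving out wild-type replicate 2 gave 0.022 for Il1rn, whose values ran from -0.68 to 0.022 over the arrays left out. The cause of these turns was not tested.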
